A study of Mus musculus with 22 samples.

Results

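Oligodendrocyte lineage genes were examined in single cortical astrocytes whose calcium response to EtOH had been imaged before their RNA was collected. The 8 genes were chosen by symbol: Olig1, Olig2, Sox10, Pdgfra, Cspg4, Mbp, Mog and Cnp. All were among the 23453 genes of the count matrix. Of the 8, 7 had a read and 6 were read in 5 or more of the 22 cells, beside 74.5% and 54.2% of all genes. The matrix holds 6 S-type cells (sustained calcium signal), 6 T-type cells (transient signal), 5 M-type cells (mixed signal) and 5 nonresponsive (NR) cells. All were primary cultured astrocytes from the cortex of C57BL/6 pups aged P0-P1. Every group, NR included, received EtOH, and ATP was applied at the end of each recording, so there was no unexposed group. The cultures had been shaken and given cytosine arabinoside to deplete other cell types such as microglia, and serum was withdrawn the day before. Each cell was aspirated with a glass pipette after imaging. The labels name neither the pup nor the culture nor the delay between EtOH and aspiration for a cell.

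Oligodendrocytes arise from oligodendrocyte precursor cells (OPCs), which carry the PDGF receptor Pdgfra and the proteoglycan Cspg4 (NG2) on their surface and divide in response to PDGF. Olig1 and Olig2 are basic helix-loop-helix transcription factors of neural progenitors and of the whole oligodendrocyte lineage. Sox10 is switched on with commitment to that lineage and directs the myelin genes. Cnp, Mbp and Mog encode proteins of the myelin sheath, with Mog appearing late on its outer surface. Astrocytes in the early postnatal cortex share progenitors with this lineage.

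Total reads per cell ran from 2937786 to 22131076, and the shallowest library was T-type cell J163_18. Each of 16 astrocyte markers was read in at least 11 cells, 14 of them in every cell, beside 45.8% and 15.6% of all genes. Of 8 neural progenitor genes 5 were read in every cell too, as were the smooth muscle genes Acta2 and Tagln. Identity was not tested beyond such counts. Between 12 and 16 of the 16 astrocyte markers had at least 5 reads in any one cell. The values below are normalized read counts, that is, reads divided by a size factor for the cell, and the level of a response type is the mean over its cells. Size factors were between 0.183 and 1.56 in T-type cells and between 0.923 and 2.31 in all others, so that a single read weighed more in some T-type cells. Because the labels tie no cell to an animal or culture, each response type stands as 1 sample, no test between types was possible, and the intervals given cover counting error of the reads only. No molecular identifiers are described for these libraries, so reads are not independent molecules.

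Stretches upstream of the start sites of 4 of the genes are shown, as they span the range from a gene read in nearly all cells (Olig2), through a pair read in some cells (Pdgfra and Cspg4), to one barely read (Mog). They are RefSeq promoter sequences of build GRCm38.p6, in which 5 of the 8 genes had an entry, and each is printed 5′ to 3′. A stretch that ran past the gene start annotated by GENCODE is cut there. The Pdgfra stretch ends short of that start, which is at 75152292. The stretches are chr16:91225300-91225456 (plus strand) for Olig2, chr5:75152001-75152250 (plus strand) for Pdgfra, chr9:56864854-56865032 (plus strand) for Cspg4 and chr17:37023399-37023648 (minus strand) for Mog. Capitals mark matches on either strand to CCAAT (the CAAT box), the GC box GGGCGG, the E-box CANNTG and the TATA box TATAAA.
Olig2: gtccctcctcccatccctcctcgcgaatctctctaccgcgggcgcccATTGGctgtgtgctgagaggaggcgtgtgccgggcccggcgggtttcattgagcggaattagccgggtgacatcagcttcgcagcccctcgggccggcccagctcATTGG
Pdgfra: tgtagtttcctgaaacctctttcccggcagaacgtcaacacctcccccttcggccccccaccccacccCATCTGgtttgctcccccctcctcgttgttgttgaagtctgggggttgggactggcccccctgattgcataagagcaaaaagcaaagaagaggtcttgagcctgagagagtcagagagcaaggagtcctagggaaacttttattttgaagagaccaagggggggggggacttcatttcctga
Cspg4: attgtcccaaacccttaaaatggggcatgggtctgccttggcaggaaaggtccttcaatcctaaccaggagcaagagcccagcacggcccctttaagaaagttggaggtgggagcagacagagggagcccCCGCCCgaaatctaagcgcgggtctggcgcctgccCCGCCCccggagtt
Mog: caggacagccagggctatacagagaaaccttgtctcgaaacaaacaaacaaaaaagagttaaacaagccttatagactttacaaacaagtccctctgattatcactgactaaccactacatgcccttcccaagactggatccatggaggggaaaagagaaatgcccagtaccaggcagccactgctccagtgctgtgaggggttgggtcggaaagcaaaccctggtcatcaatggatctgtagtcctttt
CCAAT or its reverse complement stands in the Olig2 stretch at 2 places. Over the 250 bases before each RefSeq start, 34.23% of 27025 mouse promoters hold that motif. The Cspg4 stretch holds GGGCGG at 2 places, a motif found in 32.65% of promoters. Pdgfra has 1 match to CANNTG, the short E-box that basic helix-loop-helix factors can bind, against 66.17% of promoters with at least 1. Mog has no match to any of the 4 motifs in its window. The G+C content of the 250 bases was 66.8% for Olig2, 60.4% for Cspg4, 54.4% for Pdgfra and 46.8% for Mog. The TATAAA (in 12.92% of promoters) and GGGCGG matches of the Olig2 window lie past the GENCODE start and are not printed. These are matches of letters, and no binding was measured.

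**Figure D1:**
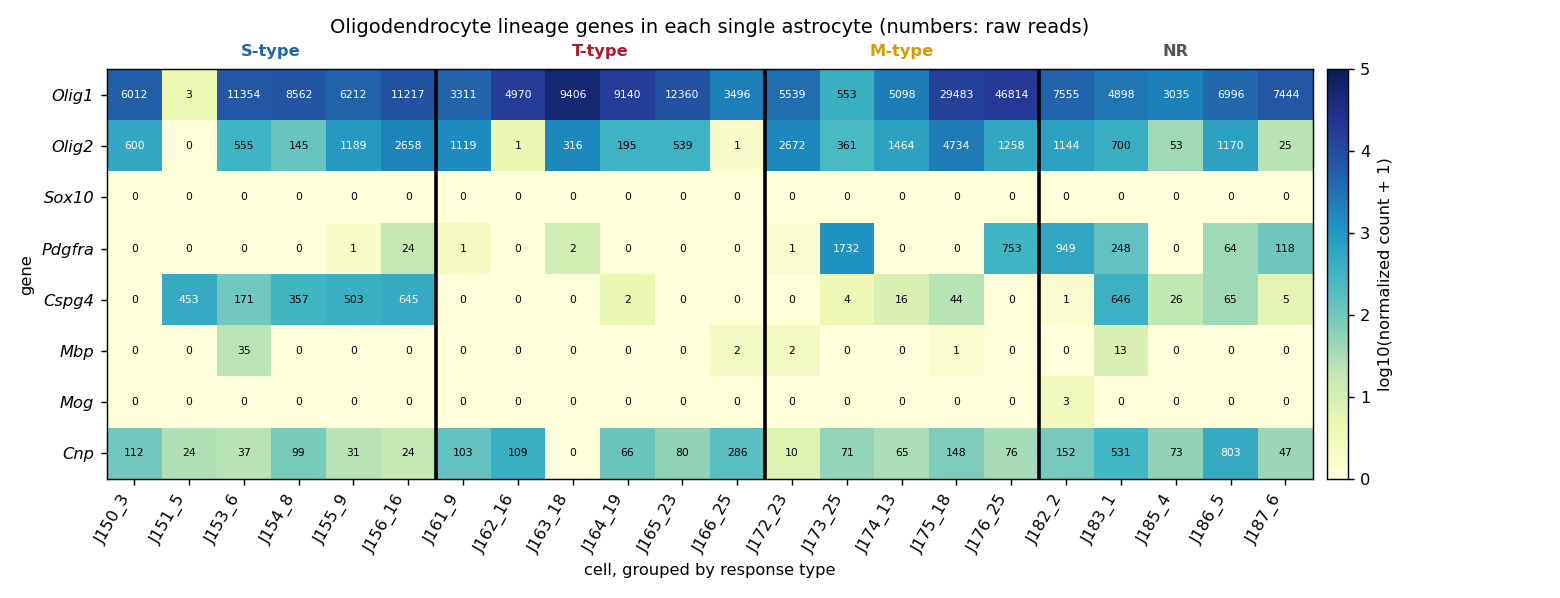
Heat map of the 8 genes (rows) in the 22 cells (columns, grouped by response type). Colour gives log10 of the normalized count plus 1, and the number in each box is the raw read count; Olig1 is filled across the row with S-type cell J151_5 at 3 reads, Sox10 is empty, and Pdgfra and Cspg4 are patchy.

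Olig1 was by far the most read of the 8 genes. It had a read in all 22 cells and 203458 reads in all, against 20899 for Olig2, 3893 for Pdgfra, 2947 for Cnp, 2938 for Cspg4, 53 for Mbp, 3 for Mog and 0 for Sox10. Only 15.6% of the genes in the matrix were read in every cell. Scaled to exon length and library size (RPKM), the mean Olig1 level over all cells was 311 and the median 179, and the mean stood at percentile 99.15 of all genes that were read. That median lay above those of 14 of the 16 astrocyte markers, among them Glul (glutamine synthetase, 124), Slc1a3 (the glutamate transporter GLAST, 89.4) and Aqp4 (the water channel of astrocyte endfeet, 67.4), and below Vim (1699) and Fabp7 (1058). The neural progenitor factor Sox2 had a median of 203 RPKM. Olig1 reads made up 87.5% of the reads of the 8 genes in the median cell.

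Olig1 lies at chr16:91269772-91271933 on the plus strand in GENCODE coordinates of GRCm38. In S-type cells its normalized count had a lowest value of 3.25, a median of 6126 and a highest value of 8324. In T-type cells the lowest, median and highest values were 2239, 12341 and 51305. T-type cell J163_18, the shallowest library, gave the highest value of all and 50.8% of the T-type sum. The M-type cells held 3465, 387, 2390, 15295 and 20225. NR cells held 4586, 2778, 2183, 4184 and 6901, and the S-type cells other than J151_5 ran from 4873 to 8324. The ranges of all 4 types overlapped.

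By mean level the order for Olig1 was T-type (16819 ± 18049 (SD, n = 6 cells)), M-type (8353 ± 8832 (SD, n = 5 cells)), S-type (5492 ± 2987 (SD, n = 6 cells)) and NR (4126 ± 1838 (SD, n = 5 cells)). By median, M-type moved from the second place to the last. Scaled to library size and length in place of size factors, the S-type median (274 RPKM) was above the T-type median (240 RPKM). No neighbours in any of these orders were separated beyond the spread of their cells. S-type cell J151_5 stood apart with 3 Olig1 reads out of 14249029 and none for Olig2. It had 15 of the 16 astrocyte markers at 5 reads or more, including 4129 reads of Slc1a3 and 5326 of Sox9. These markers together took 0.549% of its reads, the lowest share of all cells (median 1.50%). Its share on 10 neuron markers was the highest, 0.208% against a median of 0.0207%. The genes named for this cell were singled out after their values were seen. It also carried the highest Sox6 count of all cells (10998 reads), 29179 reads of the neuronal gene Stmn2, and 661 of Ugt8a, the galactolipid synthesis enzyme of myelin.

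Olig2 lies on the same chromosome at chr16:91225457-91228677, also on the plus strand, and 41.1 kb separate its end from the start of Olig1. It had a read in 21 of 22 cells and at least 5 reads in 19. The mean over all cells was 22.6 RPKM, at percentile 86.7 of genes with a read. The lowest, median and highest normalized counts were 0, 435 and 1972 in S-type cells and 0.640, 353 and 1724 in T-type cells. M-type cells held 1672, 253, 686, 2456 and 543. NR cells split, with 694, 397 and 700 in 3 cells and 38.1 and 23.2 in the other two. T-type cells J162_16 and J166_25 had 1 Olig2 read each beside 4970 and 3496 reads of Olig1.

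The M-type level of Olig2 was the highest (1122 ± 917 (SD, n = 5 cells)). T-type (668 ± 778 (SD, n = 6 cells)) and S-type (650 ± 726 (SD, n = 6 cells)) were nearly level, and NR was the lowest (371 ± 334 (SD, n = 5 cells)). Again every neighbouring pair overlapped. The lowest M-type cell was at 253, above the lowest cell of each other type, a description of 5 cells and not a tested difference. Within a cell the ratio of Olig1 to Olig2 reads ranged from 1.53 in M-type cell J173_25 to 4970 in T-type cell J162_16, with a median of 10.02 over the 21 cells with an Olig2 read. Across the 22 cells, which were each scaled by their own size factor, Olig1 and Olig2 had a Spearman rho of 0.32 and a Pearson r of 0.53 on log2 values, given as a description. J151_5 was the lowest cell for both genes.

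**Figure D2:**
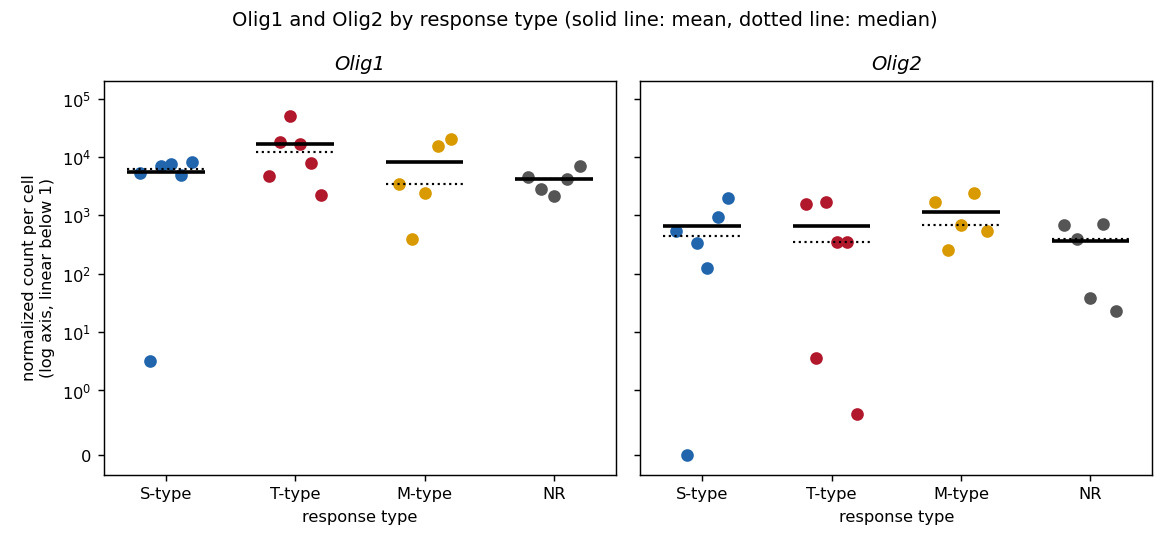
Normalized counts of Olig1 (left) and Olig2 (right), 1 point per cell, on a log axis that is linear below 1, by response type; solid lines are means and dotted lines medians. Olig1 points lie at 387 or above in all cells but S-type cell J151_5, and the types overlap for both genes.

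Sox10 had no read in any cell. Out of 354918409 reads a count of 0 allows a level of up to 0.00845 CPM (reads scaled to library size), and 0 of 22 cells allows a share of cells with a read of up to 13.6%. The gene lies at chr15:79154908-79165240 on the minus strand and no annotated exon of another gene overlaps its exons. Sox8, the closely related SoxE factor of the OPC list, was read in 20 cells with 2059 reads, and the astrocyte marker Sox9, the other SoxE factor, was at a median of 71.8 RPKM.

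Pdgfra, the receptor through which PDGF-A drives OPC division, was patchy. It lies at chr5:75152292-75198215 on the plus strand. A read was found in 11 of 22 cells, and at least 5 reads in 7. The NR cells held 576, 141, 0, 38.3 and 109 normalized counts. The M-type cells held 0.626, 1213, 0, 0 and 325, so that 2 cells carried nearly all of the M-type level. S-type cells had a lowest and median value of 0 and a highest of 17.8 (24 reads in J156_16), and T-type cells had a lowest and median value of 0 and a highest of 10.9, which is 2 reads in the shallow J163_18. Of the 7 cells with at least 5 reads 4 were NR, out of 5 NR cells.

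The mean level of Pdgfra was 308 in M-type, 172.9 in NR, 3.10 in S-type and 2.05 in T-type cells. The M-type level was 78.8% from J173_25 and the NR level 66.6% from J182_2. Cells with 0 reads occurred in every type. Over all cells the mean was 0.903 RPKM, at percentile 42.7. The ligand side of the pathway was read broadly: Pdgfa, whose product is the main PDGFRα ligand of the brain, had a median of 71.9 RPKM and type levels of 2599 (NR), 2645 (M-type), 2964 (S-type) and 3269 (T-type) normalized counts. All 5 genes of the PDGF list were read in at least 11 cells, beside 45.8% of all genes. Pdgfrb, the receptor of mural cells, had 4518 reads, and the ligands Pdgfc and Pdgfd had 20857 and 2254.

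Cspg4, the NG2 proteoglycan of OPCs and also of pericytes, was concentrated in S-type cells. It lies at chr9:56865033-56899870 on the plus strand. Of the 6 S-type cells 5 had 171 reads or more, and J150_3 had none. The lowest, median and highest normalized counts in S-type cells were 0, 354 and 491. In T-type cells the whole yield was 2 reads in J164_19. The M-type cells held 0, 2.80, 7.5, 22.8 and 0. The NR cells held 0.607, 366, 18.7, 38.9 and 4.64, and J183_1 alone gave 85.4% of the NR level.

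The order by mean was S-type (297 ± 203 (SD, n = 6 cells)), NR (85.8 ± 158 (SD, n = 5 cells)), M-type (6.63 ± 9.56 (SD, n = 5 cells)) and T-type (0.608 ± 1.49 (SD, n = 6 cells)), and the order by median was the same. The S-type cells overlapped every other type, through J150_3 at 0 and through NR cell J183_1 at 366, above S-type cells J153_6 (104) and J154_8 (313). Over all cells Cspg4 averaged 0.749 RPKM, at percentile 40.8 of genes with a read.

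**Figure D3:**
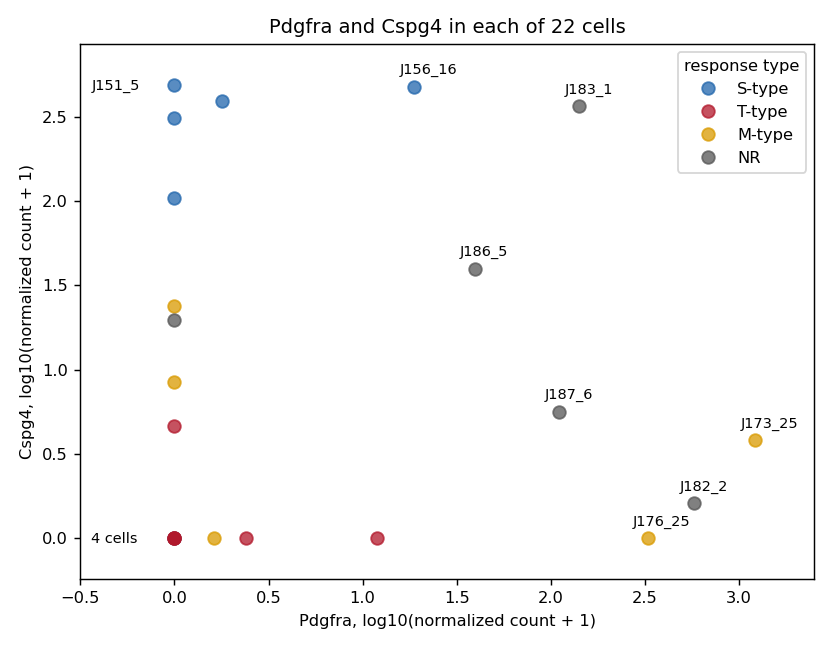
Pdgfra (x axis) against Cspg4 (y axis), both as log10 of the normalized count plus 1, with 1 point per cell coloured by response type. Of the S-type cells 5 lie along the top and 1, J150_3, is at the origin, T-type cells are at the lower left and NR cells are spread; NR cell J183_1 is high for both genes.

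Pdgfra and Cspg4 did not mark the same cells. At 5 or more reads, 4 cells had both, 3 had Pdgfra only, 7 had Cspg4 only and 8 had neither, and the Spearman rho over 22 cells was -0.02. Every one of the 7 Pdgfra cells also had at least 5 reads of Olig1, Olig2 and Cnp, as did most other cells. The 4 cells with at least 5 reads of the OPC gene Lhfpl3 were all among the 7 Pdgfra cells (J173_25 with 1034 reads, J182_2 with 460, J183_1 with 1328 and J186_5 with 86), and none was among the other 15. Lhfpl3 was singled out after its values were seen. In the median Pdgfra cell 8 of the 16 other OPC genes had 5 reads, against 7 in the rest. For Cspg4 cells the medians were 8 and 6. Col1a2, a fibroblast and mural collagen gene also singled out afterwards, had at least 5 reads in 9 of 11 Cspg4 cells and in 3 of the other 11. Of the 12 mural and fibroblast markers, the pericyte genes Rgs5 and Vtn had no read, while Acta2 and Tagln were read in every cell. Their part in the Cspg4 values was not tested.

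Cnp, the myelin 2′,3′-cyclic nucleotide phosphodiesterase, was the broadest of the myelin genes, with at least 5 reads in 21 cells. It lies at chr11:100574904-100591729 on the plus strand, and part of its exons overlaps exons of Dnajc7 on the other strand. The lowest, median and highest normalized counts were 17.8, 25.2 and 99.4 in S-type and 0, 133 and 395 in T-type cells. The M-type cells held 6.26, 49.7, 30.5, 76.8 and 32.8. The NR cells held 92.3, 301, 52.5, 480 and 43.6. J163_18 was the only cell without a read.

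The mean level of Cnp was 194 ± 191 (SD, n = 5 cells) in NR, 149 ± 137 (SD, n = 6 cells) in T-type, 46.1 ± 36.7 (SD, n = 6 cells) in S-type and 39.2 ± 26.1 (SD, n = 5 cells) in M-type cells, and all neighbours overlapped. Per length, its mean of 2.18 RPKM stood at percentile 53.4 of genes with a read, far below Olig1. Dnajc7 had 17238 reads in 20 cells, and whether the deposited counts used strand is not stated, so a share of the Cnp reads could not be assigned.

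Mbp (chr18:82475146-82585637, plus strand), the main protein compacting myelin, had 53 reads in all. They came from S-type cell J153_6 (35 reads), NR cell J183_1 (13), T-type cell J166_25 (2), M-type cell J172_23 (2) and M-type cell J175_18 (1). The remaining 17 cells had none. Mog (chr17:37010743-37023398, minus strand) had 3 reads, all in NR cell J182_2. With so few reads a difference between types was not detectable at this depth for either gene, and each ratio for Mbp below rests on 3 cells or fewer.

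The number of the 8 genes with a read per cell had a median of 5 (NR), 5 (M-type), 4.5 (S-type) and 3.5 (T-type). NR cells J182_2 and J183_1 had the most, 6. T-type cells also had the fewest genes read of any kind. The median number of all genes with a read per cell was 10944 (NR), 11300 (M-type), 11355.5 (S-type) and 9203.5 (T-type). The share of all reads on the 8 genes averaged 0.0403% (NR), 0.0580% (S-type), 0.0960% (M-type) and 0.105% (T-type). J163_18 at 0.331% lifted the T-type mean, which was 0.0603% without it.

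The question for each pair of types was which of the 6 genes that were read in 5 or more cells differed in level by 2-fold or more. T-type against S-type, 2 of the 6 were higher and 2 lower, where 26.0% of all 12719 genes so filtered were at least 2-fold higher and 32.2% lower (58.2% either way). Olig1 was higher by 1.61 on the log2 scale (counting interval 1.60 to 1.63), and the value was 0.85 without J163_18. Cnp was higher by 1.69 (interval 1.50 to 1.89). Cspg4 was lower, at -8.93 (interval -11.98 to -7.08), and stayed between -9.19 and -8.67 when any 1 cell was left out. Mbp was at -4.06, but J153_6 held all 35 S-type reads. Without J153_6 no S-type read of Mbp was left beside 2 T-type reads, so no ratio is given. Olig2 was at 0.04. Pdgfra, at -0.59, rested on 3 reads against 25, and was at 3.71 without J156_16 and -3.46 without J163_18, so no direction is given for it. The median over the 6 genes was -0.28 against -0.07 over all genes.

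T-type against NR, 1 of the 6 was higher and 3 lower, beside 28.6% and 32.4% of all genes (61.0% either way). Olig1 was higher by 2.03 (interval 2.01 to 2.05), and by 1.27 without J163_18. Pdgfra was lower, at -6.40 (interval -8.68 to -4.85), with -9.26 without J163_18 and -5.13 without J182_2. Cspg4 was at -7.14, and at -4.69 without NR cell J183_1. Mbp was at -2.79. Without J166_25 no T-type read of Mbp was left, and the value of -0.68 is then only a bound set by the floor of 3 reads. Olig2 was at 0.85 and Cnp at -0.38, both under 2-fold. The median over the 6 genes was -1.58 and over all genes -0.05.

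The T-type values moved with the scaling of the cells. Where the pooled reads of a type were scaled to its total (CPM) in place of size factors, the median of all genes was -0.55 for T-type against S-type and -0.52 for T-type against NR. Olig1 then stood at 0.21 and 0.77, higher than those medians in both cases but under 2-fold. The pooled values were not recomputed without J163_18, which gave 9406 of the 42683 T-type Olig1 reads. No direction is therefore given for Olig1 in T-type against S-type under CPM. Olig2 went from 0.04 to -1.02 and from 0.85 to -0.25, so no direction is given for it in T-type cells. Cnp against NR went from -0.38 to -1.06 (and to -1.21 with CPM averaged over cells), past 2-fold lower, so that 4 of the 6 genes were lower in T-type than NR in place of 3. Cnp against S-type went from 1.69 to 1.21, and to 0.99 with CPM averaged over cells. Cspg4 kept its direction, at -9.83 and -8.28.

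S-type against NR, 2 of the 6 were higher and 2 lower, beside 25.1% and 22.4% of all genes (47.5% either way). Cspg4 was higher by 1.79 (interval 1.67 to 1.91), and by 4.24 without J183_1. Pdgfra was lower, at -5.80 (interval -6.43 to -5.23), with a range of -10.11 to -4.54 when 1 cell was left out. Cnp was lower, at -2.07, and at -1.41 without J186_5. Mbp was at 1.27 but at -1.51 without J153_6, a bound set by the floor of 3 reads since no S-type read was left. Olig1 (0.41) and Olig2 (0.81) were under 2-fold, and Olig2 fell to 0.06 without J156_16. The median over the 6 genes was 0.61 and over all genes 0.03.

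M-type against NR, 2 of the 6 were higher and 3 lower, beside 19.8% and 28.1% of all genes (47.9% either way). Olig2 was higher by 1.60 (interval 1.54 to 1.66), between 1.09 and 1.96 when any 1 cell was left out. Olig1 was at 1.02, and at 0.38 without J176_25. Cnp was lower, at -2.31, and at -1.64 without J186_5. Cspg4 was at -3.70, and at -1.24 without J183_1. Mbp was at -2.06, from 3 reads against 13. J183_1 held all 13 NR reads, so no ratio is given without that cell. Pdgfra was at 0.83, with -1.09 without J173_25 and 2.09 without J182_2. The median over the 6 genes was -0.61 and over all genes -0.20. The 3 contrasts with NR share the same 5 NR cells.

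**Figure D4:**
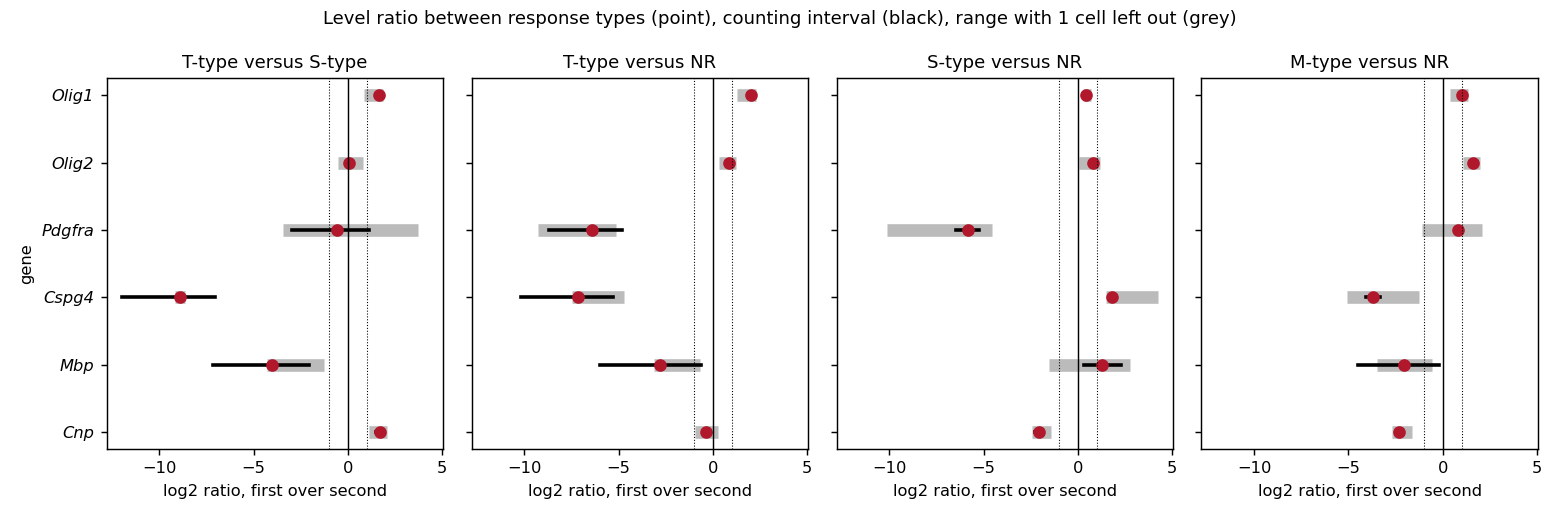
Log2 ratio of levels between response types (x axis, first over second) for the 6 genes read in 5 or more cells, 1 panel per contrast. Red points are the ratios, black lines the 95% counting intervals and grey bars the range when 1 cell is left out. Dotted lines mark 2-fold. The grey bar of Cspg4 in T-type versus S-type is short while those of Pdgfra and Mbp are wide. Where the cell left out held all reads of a type, the grey bar uses a floor of 3 reads for that type.

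In none of the 4 contrasts did the cells of the types stand apart without overlap for any of the 8 genes. Over all genes this held for 0.771% (T-type versus S-type), 0.991% (T-type versus NR), 0.409% (S-type versus NR) and 0.598% (M-type versus NR).

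Among 16 other OPC genes, 15 were read and 11 had a read in at least 5 cells, beside 74.5% and 54.2% of all genes. Gpr17, the receptor of differentiating precursors, had no read. The most read were Ptprz1 (353286 reads), a receptor phosphatase of progenitors and glia, the transcription factor Sox6 (56703), Epn2 (29348) and the brain proteoglycan Bcan (13434). T-type against S-type, 0 of the 11 were at least 2-fold higher and 7 lower, with a median of -1.43, where all genes had 26.0% higher, 32.2% lower and a median of -0.07. Ptprz1 was at -1.16 and Sox6 at -2.21, and Sox6 was at -0.94 without J151_5. T-type against NR the counts were 3 and 7 (all genes 28.6% and 32.4%), S-type against NR 4 and 4 (25.1% and 22.4%), and M-type against NR 3 and 3 (19.8% and 28.1%).

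Of 12 genes of committed oligodendrocyte precursors all were read and 8 had a read in at least 5 cells, beside 74.5% and 54.2% of all genes. Rras2 (79238 reads), Tcf7l2 (25480), the kinase Fyn (22509) and Tmem2 (6599) led. Myrf, the transcription factor that starts myelination, was at or near 0, with a mean of 0.000422 RPKM. T-type against S-type, 1 of the 8 was at least 2-fold higher and 3 lower, beside 26.0% and 32.2% of all genes. T-type against NR the counts were 1 and 2 (all genes 28.6% and 32.4%), S-type against NR 3 and 1 (25.1% and 22.4%), and M-type against NR 1 and 1 (19.8% and 28.1%).

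Of 20 other myelin genes, 16 had a read and 7 had a read in at least 5 cells, beside 74.5% and 54.2% of all genes. The 4 without a read were Opalin, Ermn, Gjb1 and Fa2h. The most read were Mal (6894 reads), Aspa (5133), the aspartoacylase of oligodendrocytes, and Tspan2 (4144), and most reads of each came from few cells. Aspa had 3544 reads in J183_1, 1305 in J182_2 and 273 in J176_25. T-type against S-type, 4 of the 7 were at least 2-fold higher and 2 lower, beside 26.0% and 32.2% of all genes. The counts against NR were 3 and 4 for T-type (all genes 28.6% and 32.4%), 3 and 4 for S-type (25.1% and 22.4%), and 3 and 3 for M-type (19.8% and 28.1%).

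**Figure D5:**
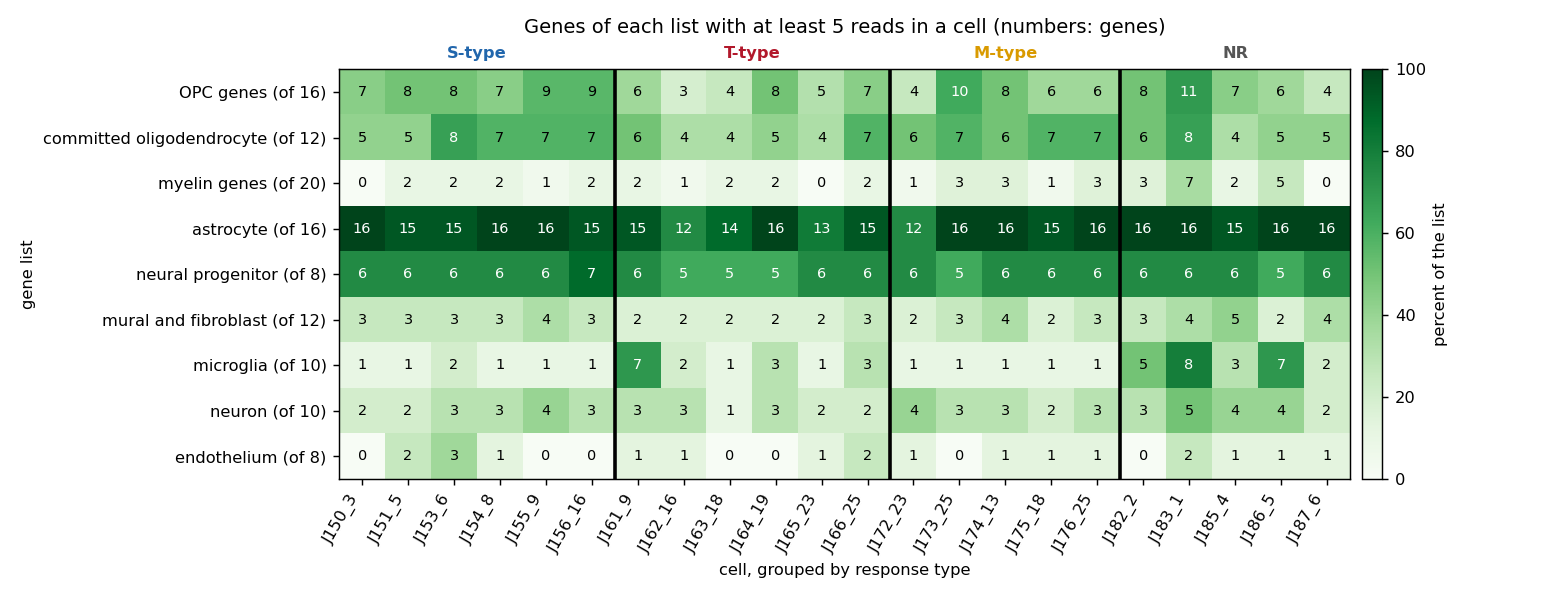
Number of genes of each list with at least 5 reads (number in the box) and the same as a percent of the list (colour), for 9 gene lists (rows) in 22 cells (columns, grouped by response type). Astrocyte markers number 12 to 16 of 16 in each cell, NR cell J183_1 has the most OPC (11) and myelin (7) genes, and microglia markers are highest in J183_1 (8), J161_9 (7) and J186_5 (7).

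NR cell J183_1 had at least 5 reads for 6 of the 8 genes, 11 of the 16 other OPC genes and 7 of the 20 myelin genes. It also had all 16 astrocyte markers, and the most genes with a read of any cell (13070, against a median of 10852.5). The OPC genes took 0.113% of its reads, near the median of 0.109% over all cells. The myelin genes took 0.0303%, the highest share of any cell. The same cell had at least 5 reads for 8 of the 10 microglia markers. Those markers include the fractalkine receptor Cx3cr1 (382 reads in J183_1) and Csf1r (116). NR cell J186_5 and T-type cell J161_9 had 7 microglia markers, J182_2 had 5, and no other cell had over 3. The range of summed microglia markers ran from 4.21e-05% to 0.0213% of reads (S-type), 0.000422% to 0.0129% (T-type), 8.93e-05% to 0.00792% (M-type) and 0.000487% to 0.0252% (NR). Of the 7 microglia genes compared, 0 were 2-fold higher and 6 lower in S-type than in NR (all genes 25.1% and 22.4%), 0 and 7 in M-type (19.8% and 28.1%), and 0 and 5 in T-type (28.6% and 32.4%). T-type against S-type, 6 of the 7 were higher and 0 lower (26.0% and 32.2%), with a median of 3.68. Their part in the Pdgfra, Cspg4 and Cnp values of NR cells was not tested. All counts over gene lists were made with the size factors alone. Of the other microglia markers, P2ry12 had 2 reads in all, while J183_1 had 63 of Tmem119, 49 of Aif1 and 120 of C1qb.

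Markers of other cell types varied by list. Neuron markers had 1 to 5 genes of 10 at 5 reads in a cell, with no read of Slc17a7. Endothelial markers had at most 3 of 8, with no read of Cldn5, Cdh5 or Tie1. Mural and fibroblast markers had 2 to 5 of 12, and of these the smooth muscle genes Acta2 and Tagln were at a median of 416 and 178 RPKM. Neural progenitor markers had 5 to 7 of 8 in every cell.

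The genes whose normalized counts ranked the 22 cells most like each gene were taken from 10493 candidates. For Olig1 they were Timp4 (Spearman rho 0.81), a metalloproteinase inhibitor, Wdr19 (0.70) and Srsf6 (0.67). Arhgef18 (0.74) and Gnl2 (0.74) were among the 3 most like Olig2. Pdgfra was most like Sh3kbp1 (0.74), Il17ra (0.68) and Spred1 (0.67). Cspg4 was most like Ppil4 (0.84), Osbpl7 (0.83) and Sv2a (0.83), and Cnp was most like Prr13, Rasl11a and Ptpmt1 (each 0.71). None of the genes named as most alike is on the lineage lists, and the rho values are descriptions over cells that share the size-factor scaling.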

How the data were processed

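Single astrocytes were amplified by the aRNA method, sequenced as stranded libraries and, per the authors' methods, aligned with STAR to GRCm38 and counted over exons with VERSE, a modified HTSeq. The deposited values are raw read counts per gene symbol; the authors made no further normalization in this file, and use of strand in the counting is not stated. All 22 cells carried a response type in their labels. Totals ran from 2937786 to 22131076 reads per cell. The highest Pearson r between any 2 cells was 0.905, so none was a repeat of another.

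Size factors were medians of ratios over the 3670 genes read in every cell. A level is the mean of read count over size factor; where a type had no read, 3 reads over the type stood in as the floor. Ratios carry exact 95% binomial intervals of the read split. The 12719 genes that 5 or more cells showed were compared, and a 2-fold ratio was called. RPKM used GENCODE vM21 exon unions as length, which is approximate because aRNA libraries are biased to the 3′ end. No test was run, since each type counts as 1 sample. The 8 genes and the gene lists were chosen with earlier results of these data known. The text names all 8 genes, up to 4 most read genes of each lineage list, and the 3 genes with highest Spearman rho to each gene read in at least 11 cells (candidates also had a mean level of at least 10); some genes that met these rules are not reported here. Alternatives were CPM (pooled or as a mean over cells), edgeR 4.0.16 TMM factors, thinning of every cell to 2937786 reads, a pseudocount of 1, dropping the filter or setting it at a mean level of 10, and omission of single cells. Python 3.11.15, NumPy 2.4.6, pandas 2.3.3 and SciPy 1.17.1 were used, and the ratio computation was tested on simulated data.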

Additional observations from a re-analysis of the deposited data

Results flagged for a closer look

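Among 33 sets of values from 5 or 6 cells of a type, 11 had 1 cell far from the rest by Dixon's criterion, where chance gives about 1 in 20. That rate does not apply to 5 of the 11, where every other cell had 0 reads and any read in 1 cell meets the criterion. Values are log2 of the normalized count plus 1. Low cells were S-type J151_5 for Olig1 (2.09, others 12.25 to 13.02) and for Olig2 (0.0, others 7.0 to 10.95), S-type J150_3 for Cspg4 (0.0, others 6.72 to 8.94) and T-type J163_18 for Cnp (0.0, others 5.72 to 8.63). High cells were S-type J156_16 for Pdgfra (4.23, 24 reads), T-type J163_18 for Pdgfra (3.57, 2 reads) and T-type J164_19 for Cspg4 (2.22, 2 reads). For Mbp they were S-type J153_6 (4.48), T-type J166_25 (1.19) and NR J183_1 (3.07), and for Mog NR J182_2 (1.5); these 4 and T-type Cspg4 are the 5 groups in which all other cells had 0 reads. Several of the high values rest on 2 or 3 reads.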

How the results depend on the processing

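No paired analysis was possible because the replicate numbers are only names in accession order and no result comes from a test. With CPM of pooled reads, the genes at least 2-fold higher in T-type than S-type went from 2 to 1 and those lower from 2 to 4, those higher in T-type than NR from 1 to 0 and those lower from 3 to 4. With mean CPM over cells, the first count was also 1. The count lower in T-type than S-type was 1 when cells were thinned and 1 with a mean level of at least 10, and the count higher in S-type than NR was 1 with thinning, with a pseudocount of 1 and with a mean level of at least 10. The share of reads on the 8 genes was 0.0609% (T-type), 0.0977% (M-type) and 0.0412% (NR) when reads were pooled. The cause of these changes was not tested. Leaving out 1 cell, the counts higher and lower ran from 1 to 2 and 1 to 3 (T-type versus S-type), 1 to 2 and 2 to 3 (T-type versus NR), 1 to 3 and 2 to 3 (S-type versus NR), and 1 to 3 and 2 to 4 (M-type versus NR). The share ran from 0.0516% to 0.0689% (S-type), 0.0603% to 0.122% (T-type), 0.0648% to 0.116% (M-type) and 0.0381% to 0.0451% (NR). The Mbp ratio of S-type to NR turned to -1.51 without J153_6 and ran up to 2.78 without J183_1. Both values are bounds set by the floor of 3 reads, since 1 type then had no read. Of the single-gene ratios under other settings, 126 stayed within their counting interval and 39 did not. With 1 cell left out, 132 stayed within it, 127 moved out of it and 1 reversed. Thinned to 2937786 reads, Pdgfra was read in 8 cells, Cspg4 in 13, Mbp in 3 and Mog in 0, which limits what the patchy genes can show.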
